A study of Mus musculus with 8 samples.

Results

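Potassium channel genes were followed in purified heart muscle cells of newborn C57BL6/J mice, taken at postnatal day 2. They were taken as every entry of the count table whose symbol is Kcn, then 1 or more lower-case letters, then a number at the end, which gave 92 genes of 48440 entries. These are the pore-forming subunits of potassium channels and the accessory subunits that bind them. There were 8 libraries, 1 male and 1 female from each of 4 litters, with no treatment and no altered allele named. Sex could thus be compared with 4 libraries a group and litter with 2. The labels call the material purified cardiomyocytes and do not say which chambers were used. Libraries held 14226342 to 24910243 counts.

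A potassium channel opens a path for potassium ions out of the cell, which sets the resting potential of a cardiomyocyte and ends its action potential. Voltage-gated channels (Kcna to Kcnd, Kcnh and Kcnq) open on depolarization, inward rectifiers (Kcnj) hold the resting potential, and tandem-pore channels (Kcnk) carry background current. Small-conductance channels (Kcnn) open on calcium, and Slo-family channels (Kcnma, Kcnt, Kcnu) have large pores. Genes of the groups Kcnf, Kcng, Kcns and Kcnv encode voltage-gated subunits that pass no current alone and join other subunits. Kcne, Kcnip, Kcnab and Kcnmb genes encode accessory subunits. In rodents, repolarizing currents change after birth, as fast transient outward and delayed rectifier currents of the adult replace those of the newborn.

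The feature that the pore-forming genes share is the selectivity filter, a short loop that strips water from potassium ions. It was searched for in the longest coding sequence of each gene in GENCODE M21 (GRCm38) as threonine or serine, then isoleucine, valine, leucine, phenylalanine or threonine, then glycine, then tyrosine, phenylalanine or leucine, then glycine. All 77 pore-forming and modifier genes had it and 0 of 15 accessory genes did, while 382 of 21901 coding genes did (1.74%). These counts describe reference sequences and not the libraries, and accessory subunits form no pore. Each of the 14 tandem-pore genes had it at least at 2 places. The stretch that codes for it is given for several of the pore genes with high levels or with differences between litters, 39 bases each, read 5′ to 3′ on the coding strand, with the 15 bases of the filter in capitals.
Kcnh2: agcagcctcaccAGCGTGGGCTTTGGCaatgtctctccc
Kcna4: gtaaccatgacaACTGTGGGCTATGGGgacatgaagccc
Kcnj5: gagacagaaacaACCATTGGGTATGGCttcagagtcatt
Kcnj3: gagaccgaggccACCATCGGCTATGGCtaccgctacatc
Kcnj11: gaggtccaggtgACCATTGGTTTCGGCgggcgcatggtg
Kcnj2: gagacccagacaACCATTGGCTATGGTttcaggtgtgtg
Kcnk3, second filter: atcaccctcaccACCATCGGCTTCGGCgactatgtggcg
Kcnn1: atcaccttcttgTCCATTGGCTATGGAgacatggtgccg

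On GRCm38 these stretches lie within 1 exon each, at chr5:24325543-24325581 on the minus strand for Kcnh2 and chr2:107296483-107296521 on the plus strand for Kcna4. Among the inward rectifiers they are at chr9:32322547-32322585 (minus) for Kcnj5, chr2:55437615-55437653 (plus) for Kcnj3, chr7:46099484-46099522 (minus) for Kcnj11 and chr11:111072195-111072233 (plus) for Kcnj2. For Kcnk3 and Kcnn1 they are at chr5:30622190-30622228 (plus) and chr8:70850645-70850683 (minus).

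Of the 92 genes, 26 were expressed, 24 were low and 42 were silent. Expressed means kept by edgeR's filterByExpr, about 10 counts or 0.432 CPM (counts scaled to a library total of 1000000) in at least 4 libraries. Silent means at most 3 counts in every library, and 19 silent genes had 0 counts in all 8 libraries, which allows up to 0.0171 CPM over the libraries together (3 counts in all, counting error only). Inward rectifiers had 7 of 15 genes expressed and voltage-gated pore genes 10 of 30. Of the 10 modifier genes 1 was expressed, Kcng2, and the other 9 were silent. Tandem-pore genes had 2 of 14 expressed and 9 silent, small-conductance genes 2 of 4 expressed, Slo-family genes 0 of 4, and accessory genes 4 of 15.

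**Figure D1:**
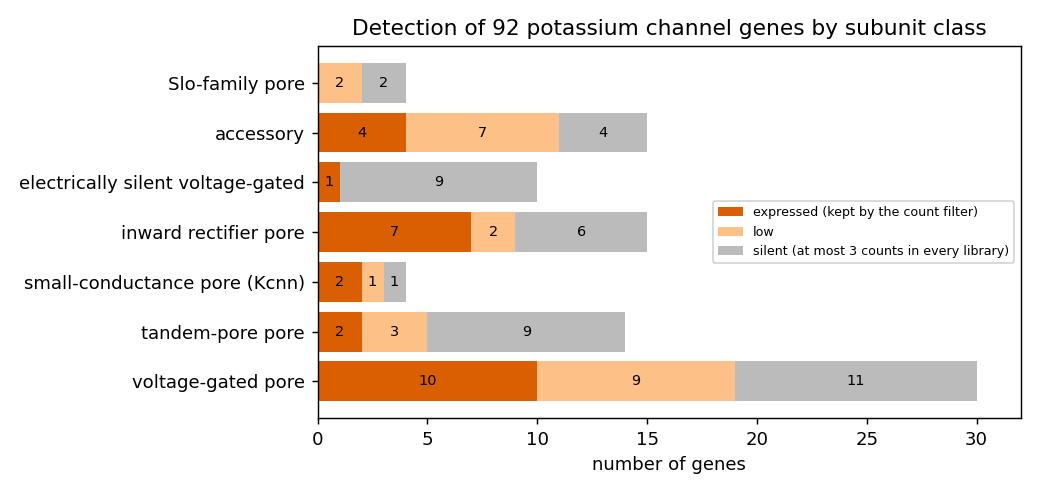
Number of potassium channel genes that were expressed, low or silent in each subunit class, over 8 libraries. Bars are stacked and each number is a count of genes: 26 of 92 were expressed, and the modifier class (electrically silent voltage-gated) had 1 expressed gene and 9 silent ones.

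A few genes held nearly all of the potassium channel RNA. Levels of different genes were compared as CPM per kilobase of merged exons in GENCODE M21, since long transcripts give more reads. On this scale the first 5 genes took 66.6 ± 1.15% of the sum over the 92 genes (SD, n = 8), the first 10 took 93.1 ± 0.773% and the first 15 took 98.2 ± 0.220%. Accessory genes made up 28.9 ± 2.94% of the sum, inward rectifiers 24.8 ± 2.08%, voltage-gated pore genes 22.4 ± 1.61% and modifier genes 14.7 ± 0.874%. Tandem-pore genes followed with 7.29 ± 1.15% and small-conductance genes with 1.92 ± 0.275%.

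The order was led by Kcne1, Kcng2 and Kcnh2. Kcne1, the accessory subunit that slows the Kcnq1 channel, had 81.9 ± 19.1 CPM per kilobase (SD, n = 8). Kcng2, a modifier subunit, had 60.3 ± 4.30, and Kcnh2, the pore of the rapid delayed rectifier, had 57.8 ± 5.18. Ranges of Kcne1, Kcng2 and Kcnh2 overlapped, with Kcne1 above Kcng2 in 6 of 8 libraries and Kcng2 above Kcnh2 in 5 of 8. Kcnj5, Kcnj11 and Kcnip2 came next at 37.2 ± 5.09, 37.0 ± 1.72 and 35.9 ± 2.71, and could not be ordered, each neighbour being higher in 5 of 8 libraries. All 8 libraries had Kcnh2 above Kcnj5, without overlap. Kcnk3 had 29.9 ± 6.20 and Kcnq1 23.2 ± 2.76, and Kcnk3 was the higher in 7 libraries. After a gap of 2.27-fold, Kcnj2 and Kcnj12 had 10.2 ± 1.30 and 9.97 ± 0.957. Further down were Kcnj3 with 5.99 ± 0.938, Kcnn2 with 4.39 ± 0.106 and Kcnn1 with 3.42 ± 0.575. Kcna4 was the fifteenth gene, at 1.95 ± 0.288, and the other 11 expressed genes lay between 0.132 and 1.47 on average. With the longest transcript in place of the merged exons, the first 15 were the same genes in another order. Kcnh2 then ranked above Kcng2, Kcnj11 and Kcnip2 above Kcnj5, Kcnq1 above Kcnk3, Kcnj12 above Kcnj2 and Kcnn2 above Kcnj3, while Kcne1 stayed first.

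**Figure D2:**
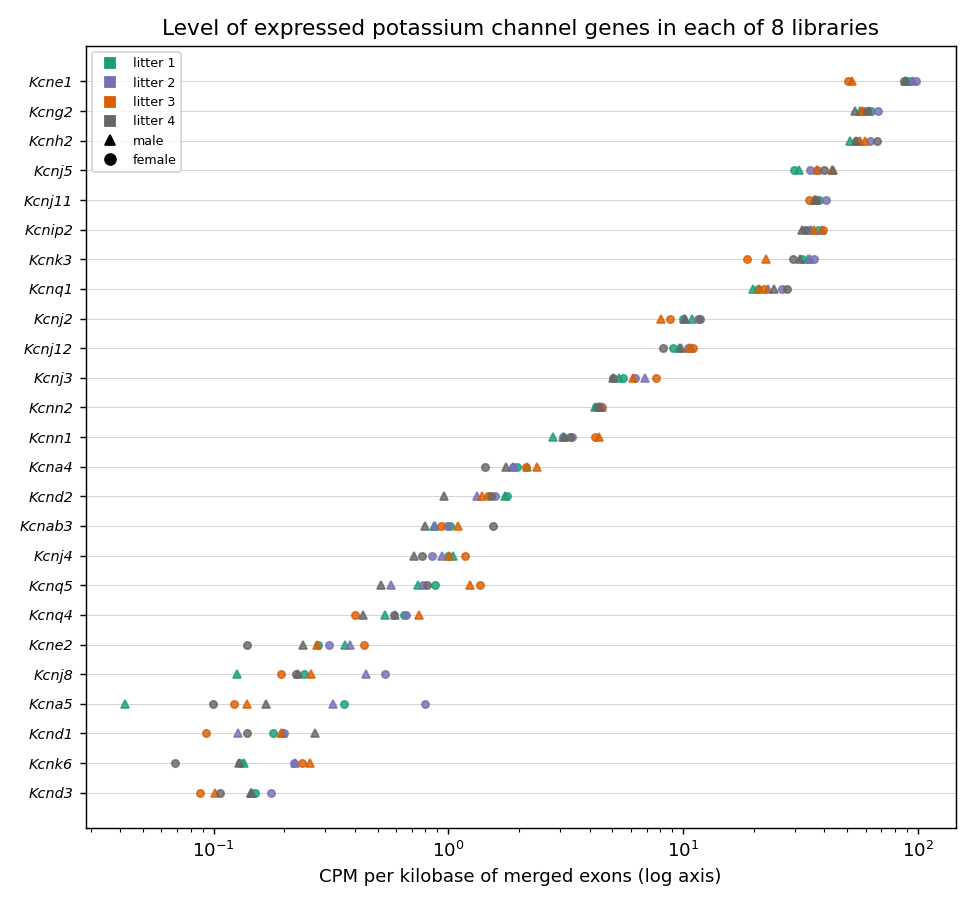
Level of expressed potassium channel genes in each of 8 libraries, in CPM per kilobase of merged exons on a log axis. Colours mark litters and shapes mark sex; Kcne1 has its 2 litter 3 libraries below the rest, while the Kcnn2 points lie close together (4.39 ± 0.106, SD, n = 8).

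Among the genes of the delayed rectifier currents, Kcnh2, Kcnq1 and Kcne1 were expressed well above Kcna5. Kcnh2 (chr5:24319589-24351604) had 249 to 327 CPM, with a mean of 279.9 ± 25.1 (SD, n = 8). Kcnq1 (chr7:143106362-143427042), the pore of the slow delayed rectifier, had 95.1 ± 11.3 CPM. Kcna5 (chr6:126532551-126535412), the pore of the ultrarapid current of the adult mouse heart, had 0.734 ± 0.700 CPM, from 3 to 50 counts in a library. Kcna7, with 5 to 22 counts, and Kcnab2, an accessory subunit with 0 to 9 counts, were low. Kcna1, Kcna2 and Kcnc1 were silent.

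Of the transient outward genes, the accessory subunit Kcnip2 was far above the pore genes it is known to bind. Kcnip2 (chr19:45791839-45816061) had 125 ± 9.42 CPM, with 111 CPM in the lowest library and 137 CPM in the highest. The pore genes of the fast current, Kcnd2 and Kcnd3, had 7.59 ± 1.35 and 1.27 ± 0.289 CPM, and Kcna4, the pore of the slow current, had 9.45 ± 1.39 CPM. Per kilobase, Kcnip2 was 22.9 ± 3.94 times the sum of Kcnd2 and Kcnd3 (18.6 to 29.1), and Kcnd2 was 11.7 ± 3.28 times Kcnd3. Kcnd1 had 0.924 ± 0.289 CPM and the accessory Kcne2 had 0.536 ± 0.164 CPM. Kcne3 and Kcnab1 were low, with 1 to 9 and 1 to 8 counts in a library, and Kcnc4 was silent.

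Inward rectifiers of the resting potential were led by Kcnj2 and Kcnj12, at about equal levels per kilobase. Kcnj2 (chr11:111066164-111076821) had 55.6 ± 7.05 CPM and Kcnj12 (chr11:61022564-61071131) 27.4 ± 2.63 CPM, and the ratio of Kcnj2 to Kcnj12 per kilobase was 1.04 ± 0.214. Kcnj4 had 2.02 ± 0.326 CPM, with Kcnj12 at 10.8 ± 1.63 times its level per kilobase, and Kcnj14 was low, with 1 to 4 counts.

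Kcnj3 and Kcnj5 encode the subunits of the acetylcholine-activated channel, which is best known from atrial and nodal cells. Kcnj5 (chr9:32314707-32344350) had 174.2 ± 23.8 CPM and Kcnj3 (chr2:55435970-55598145) 31.2 ± 4.89 CPM. Per kilobase Kcnj5 was 6.34 ± 1.39 times Kcnj3, and it was the higher in all 8 libraries, with ratios from 4.87 to 8.65. Of the 100-base windows of the Kcnj3 transcript, 27.9% also occur in Gm26794 on the opposite strand, so its counts are uncertain where strand was not used.

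ATP-sensitive channels join a pore subunit, Kcnj11 or Kcnj8, with a sulfonylurea receptor. Kcnj11 (chr7:46093953-46100764) had 127 to 149 CPM in the 8 libraries, and Kcnj8 (chr6:142564837-142571614) had 7 to 30 counts, or 0.720 ± 0.351 CPM. The ratio of Kcnj11 to Kcnj8 per kilobase was 156 ± 66.0, from 75.5 to 289. The receptor genes Abcc9 and Abcc8 had 460 ± 46.0 and 90.5 ± 20.0 CPM. Kcnj8 and Abcc9 are also known as genes of pericytes.

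Of the background, calcium-activated and modifier genes, 5 were expressed. Kcnk3 (chr5:30588170-30625271), an acid-sensitive background channel, had 119 ± 24.7 CPM, and Kcnk6 had 0.725 ± 0.281 CPM. Kcnk2, Kcnk4 and Kcnk5 were low, with 10 counts at most in a library, and Kcnk1 and Kcnk9 were silent. Kcnn2 (chr18:45268860-45686024) had 31.5 to 33.8 CPM in all 8 libraries, the smallest SD relative to its mean among the 26 expressed genes, and 11.6% of its windows also occur in genes on the opposite strand. Kcnn2 was 1.31 ± 0.179 times Kcnn1 per kilobase of merged exons and 2.34 ± 0.320 times with the longest transcript as length, where Kcnn2 itself had 8.90 in place of 4.39 CPM per kilobase, while Kcnn3 was low and Kcnn4 silent. Kcnma1, the pore of the large-conductance channel, had 1 count over all 8 libraries. Its accessory genes Kcnmb1 and Kcnmb4 were low, with 2 to 9 and 2 to 12 counts.

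Kcng2 (chr18:80294546-80364254) had 170.1, 186, 174 and 162 CPM in the males of litters 1 to 4 and 190, 203, 175 and 183 CPM in the females. The female was higher in 4 of 4 litters, while the ranges of the sexes overlapped. Exons of Kcng2 overlap those of D330025C20Rik on the opposite strand over 272 bases. The other modifier genes, Kcnf1, Kcng1, Kcng3, Kcng4, Kcns1, Kcns2, Kcns3, Kcnv1 and Kcnv2, had at most 3 counts in a library.

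Sex was compared first, male minus female, to see whether any of these genes differed between the sexes at this age. No expressed potassium channel gene passed in edgeR's quasi-likelihood test at an adjusted p-value under 0.05 (0 of 26), against 0.0436% of 13771 genes tested. At an unadjusted p-value under 0.05 the count was also 0 of 26, against 2.22% of all genes, and DESeq2 called 0 as well. The log2 fold changes of the 26 ran from -1.05 for Kcna5 to 0.35 for Kcnd1, with a median of -0.02, against 0.00 over all genes. Kcna5 had 0.481 ± 0.334 CPM in the males, and the females had 0.988 ± 0.928 CPM (SD, n = 4 each; SE of the log2 fold change 0.69), and the sexes overlapped.

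With litter as a block, which compares brother with sister, 0 of 26 passed after adjustment, against 0.211% of all genes, and 6 had an unadjusted p-value under 0.05, against 11.6%. Among the 6 were Kcnq5, Kcnj5, Kcnq1, Kcna5 and Kcng2, and the smallest adjusted p-value in edgeR was 0.337, for Kcnq5. Kcnj5 was higher in the male of 4 of 4 litters, by 0.13 on the log2 scale (SE 0.05). Kcnq5, Kcnq1 and Kcng2 were higher in the female of 4 of 4 litters, with log2 fold changes of -0.35 (SE 0.12), -0.12 (SE 0.05) and -0.11 (SE 0.05). None of these differences held after adjustment over all genes. In the same fit 5 of 9 fibroblast markers (Dcn, Col1a1, Col1a2, Col3a1 and Postn) were higher in males, with edgeR adjusted p-values from 0.000315 to 0.00545, and the endothelial marker Cldn5 was lower (log2 fold change -2.21, adjusted p = 0.0259). The part of those cells in the sex differences was not tested. Without litter as a block, the log2 fold changes depended on single libraries. Leaving out 1 library gave -1.60 to -0.26 for Kcna5, -0.62 to -0.12 for Kcnq5, -0.20 to -0.03 for Kcnq1 and 0.05 to 0.23 for Kcnj5, with no change of sign.

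Litters were compared next, to see which genes varied between families of pups. Of the 26 expressed genes 10 differed between litters in edgeR's F test, which is 38.5%, against 32.1% of all genes tested, so the share is near the background. The median range over litters was 0.47 on the log2 scale for the 26 genes and 0.37 for all genes. Litter and any handling that differed between litters cannot be told apart, since no batch is named. Each litter has 2 libraries, so these p-values rest on the spread between its male and its female library.

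Litter 3 had the most calls, among the 26 genes and among all genes tested. The shares of the 26 genes were near the background for lower genes and below it for higher ones. Against the mean of the other litters, 4 of the 26 genes (15.4%) were lower in litter 3 and 2 (7.69%) were higher, against 14.8% and 13.6% of all genes. Among the 4 lower genes were Kcne1, Kcnk3 and Kcnj2, and the 2 higher genes were Kcnq5 and Kcnn1.

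Kcne1 (chr16:92345982-92359468) had 170 and 162 CPM in the male and the female of litter 3. In litters 1, 2 and 4 it had 289, 307 and 283 CPM in the males and 299, 316 and 280.2 CPM in the females. Both litter 3 libraries were thus far below the other 6, which lay close together. The log2 fold change of litter 3 was -0.88 (SE 0.06, edgeR adjusted p = 1.9e-06), and the F test over litters gave an adjusted p of 1.38e-05. Without litter 3 the range over litters fell to 0.07 on the log2 scale and the adjusted p rose to 0.717.

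Kcnk3 followed the same order, with 89.5 and 74.4 CPM in the male and the female of litter 3. The other males had 135, 138 and 125 CPM and the other females 128, 144 and 117 CPM, so that the groups did not overlap. Its log2 fold change in litter 3 was -0.72 (SE 0.07, edgeR adjusted p = 3e-05). Without litter 3 its range fell from 0.80 to 0.14 and its adjusted p was 0.390. Exons of Kcnk3 overlap those of Gm9899 on the opposite strand over 229 bases.

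Kcnj2 was lower in litter 3 by less. Kcnj2 had 44.1 and 48.1 CPM in litter 3, against 54.5 to 64.7 CPM in the other 6 libraries, without overlap (log2 fold change -0.40, SE 0.08, edgeR adjusted p = 0.0031). The F test of Kcnj2 over litters lost its call without the male or the female of litter 3, with an adjusted p of at most 0.087. The litter 3 contrasts of Kcne1, Kcnk3 and Kcnj2 kept their call without any 1 library and under each scaling.

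The genes higher in litter 3 were low to moderate in level. Kcnq5, a pore gene of the muscarine-sensitive family, had 9.54 and 10.5 CPM in litter 3, against 3.98 to 6.76 CPM in the other 6 libraries (log2 fold change 0.84, SE 0.13, edgeR adjusted p = 0.000889). Kcnn1, a small-conductance pore gene, had 20.1 and 19.4 CPM there, against 12.8 to 15.4 CPM elsewhere (log2 fold change 0.43, SE 0.09, adjusted p = 0.00382). Neither gene had overlapping groups. On the opposite strand, Kcnq5 overlaps exons of Gm26580 over 237 bases and Kcnn1 overlaps exons of A230052G05Rik over 132 bases. Without the male of litter 3, Kcnn1 was no longer past the threshold in this contrast (edgeR adjusted p = 0.091), while Kcnq5 was lost in the F test over litters (0.0539). The F test of Kcnn1 was also lost without the male of litter 1.

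Kcnq1 and Kcnj5 differed between litters also without litter 3. Kcnj5 had 147 and 139 CPM in the male and the female of litter 1, 174 and 164 CPM in litter 2, 203 and 175 CPM in litter 3, and 204 and 188 CPM in litter 4. Litter 1 was below all other libraries (log2 difference -0.37, SE 0.06, edgeR adjusted p = 0.00196), and litter 4 was higher than the mean of the others by 0.32 (SE 0.06, adjusted p = 0.00694). Kcnq1 had 81.6 and 85.6 CPM in litter 1 and 100.5 and 114 CPM in litter 4, with the other 4 libraries between 86.4 and 108 CPM. It was lower in litter 1 (log2 difference -0.24, SE 0.06, edgeR adjusted p = 0.0219) and higher in litter 4 by 0.31 (SE 0.06, adjusted p = 0.00872). The litter 1 calls of Kcnj5 and Kcnq1 were lost without the male of litter 1, at edgeR adjusted p-values of 0.0968 and 0.172, and that of Kcnq1 also without the female (0.336). The litter 4 calls of both were lost without the male of litter 4 (0.0601 and 0.0556), and that of Kcnq1 also without the female (0.0799).

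The other litters had 3 or 4 calls each. In litter 1, Kcne1 and Kcnk3 were higher and Kcnj5 and Kcnq1 lower, 2 of 26 (7.69%) in each direction, against 7.86% higher and 5.41% lower among all genes. Litter 2 had 4 genes (15.4%) higher, among them Kcne1, Kcnk3 and Kcna5, and 0 lower, against 3.3% and 0.879%. Litter 4 had 3 (11.5%) higher, Kcne1, Kcnq1 and Kcnj5, and 0 lower, against 4.71% and 5.8%. Those 4 comparisons share libraries, and a low litter 3 raises the others for the same gene, as in Kcne1 and Kcnk3. None of the litter 1 calls held without the male of litter 1, none of the litter 2 calls without the female of litter 2, and none of the litter 4 calls without the male of litter 4. Without the female, litters 1 and 4 had 1 call each, and without the male of litter 2, that litter had 2 calls.

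Kcnj3 and Kcna5 also passed in the F test over litters, near the threshold. Kcnj3 had 28.4 ± 0.655, 34.3 ± 2.27, 35.9 ± 5.75 and 26.2 ± 0.0474 CPM in litters 1 to 4 (n = 2 each, ± SD; adjusted p = 0.0469 in edgeR). It lost the call in 6 of the 8 fits without 1 library, in DESeq2, without a sex term and without litter 3. Kcna5 had 0.120 and 1.03 CPM in the male and the female of litter 1, 0.926 and 2.29 CPM in litter 2, 0.399 and 0.351 CPM in litter 3, and 0.477 and 0.285 CPM in litter 4 (adjusted p = 0.0437). Its litters overlapped, and the call was lost in 4 fits without 1 library (male or female of litter 2, female of litter 3 or 4), in DESeq2, without a sex term and without litter 3.

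**Figure D3:**
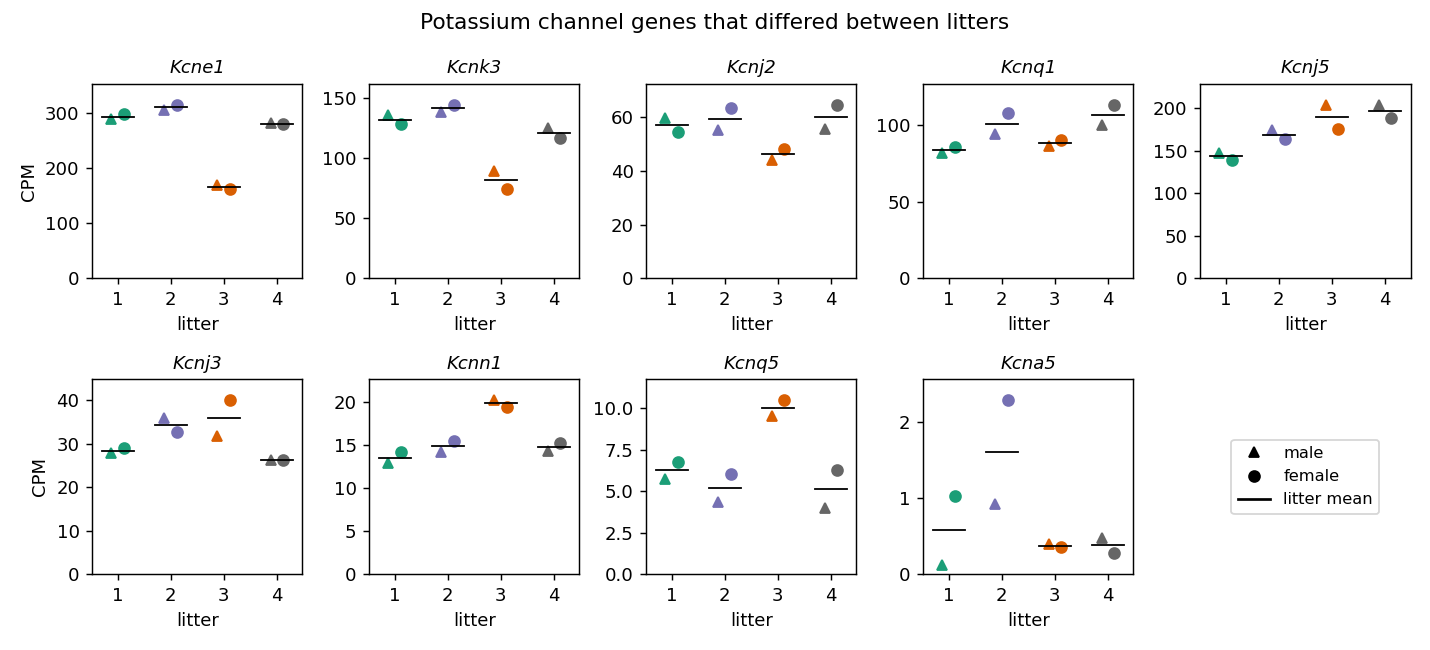
CPM of genes with differences between litters, by litter, with a triangle for the male, a circle for the female and a line for the litter mean of 2 libraries. The vertical axes start at 0; Kcne1 and Kcnk3 are lowest in litter 3 in each sex, and Kcnq5 and Kcnn1 are highest there.

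The remaining 16 expressed genes did not pass in the F test over litters. Kcng2, Kcnj11, Kcnip2, Kcnj12 and Kcnn2 had ranges over litters of 0.17, 0.15, 0.12, 0.18 and 0.11 on the log2 scale. Single libraries moved these by more than 1.5 times for Kcnip2 (0.23 without the female of litter 2, 0.20 without the male of litter 3), Kcnj12 (0.27 without the male of litter 3, 0.30 without the male of litter 4), Kcnj11 and Kcng2 (0.08 and 0.11 without the female of litter 3), and none of these genes passed in any of these fits. Kcnh2 had 256 ± 10.5, 289 ± 19.8, 278 ± 13.7 and 295 ± 43.9 CPM in litters 1 to 4 (± SD over 2 libraries; adjusted p = 0.118 in edgeR). Its litter 1 libraries, with 248.9 and 263.7 CPM, were below the other 6, of which the lowest, the male of litter 4, had 264.4 CPM. Kcnh2 passed with a minimum of 1 count (edgeR adjusted p = 0.0493), without the male of litter 3 (0.0491) and without the male of litter 4 (0.0423). Kcnj8 had 1.25 ± 0.166 CPM in litter 2, against means of 0.470 to 0.579 CPM elsewhere (adjusted p = 0.0556), and it passed where no TMM factor was applied (0.0475) and with a minimum of 1 count (0.0273). Kcnc2, a voltage-gated pore gene that the filter left out, had 20 and 30 counts in the male and the female of litter 2 and 1 to 11 counts in the other libraries. With a minimum of 1 count it passed in the F test over litters.

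Ratios between partner subunits varied between litters. The ratio of Kcne1 to Kcnq1 per kilobase was 4.48 ± 0.0520, 3.94 ± 0.282, 2.39 ± 0.157 and 3.37 ± 0.317 in litters 1 to 4 (SD, n = 2), with the litter 3 libraries below the other 6. That of Kcnj2 to Kcnj12 was 0.781 ± 0.0268 in litter 3 and 1.02 to 1.24 in the others. Kcnj5 to Kcnj3 was 8.31 ± 0.476 in litter 4 and 5.48 to 5.98 in the others. The ratio of Kcnn2 to Kcnn1 was 1.03 ± 0.00434 in litter 3 and 1.37 to 1.45 in the others. Kcnh2 to Kcnq1 varied little, from 2.22 to 2.81 over the 8 libraries. These ratios are descriptions and were not tested.

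**Figure D4:**
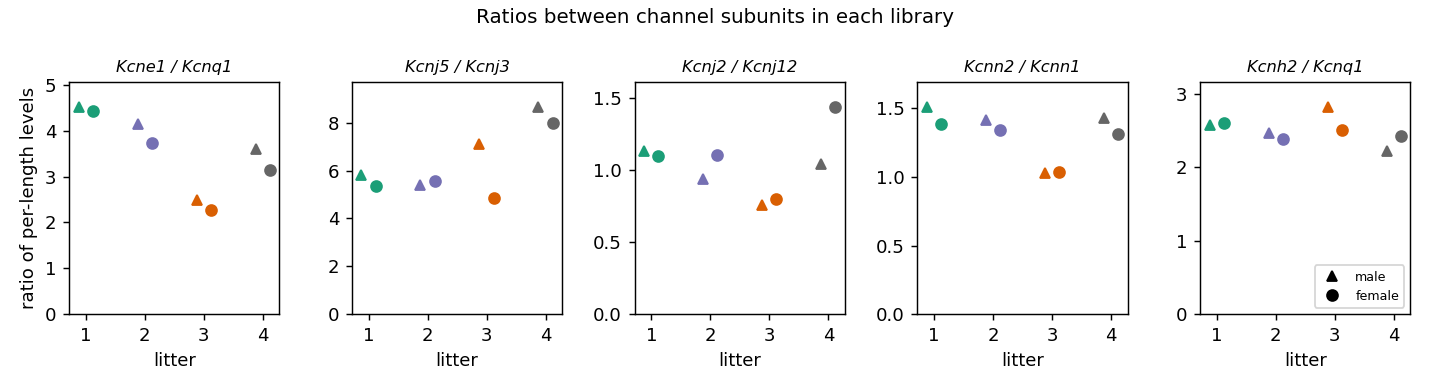
Ratios of levels per kilobase between partner or paralogous subunits in each library, by litter, with triangles for males and circles for females and axes from 0. Kcne1 to Kcnq1, Kcnj2 to Kcnj12 and Kcnn2 to Kcnn1 are lowest in litter 3, while Kcnh2 to Kcnq1 stays between 2.22 and 2.81.

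Cell type markers moved with some of these results. The 13 cardiomyocyte markers were all tested and summed to 87690 to 90220 CPM in litter 3, against 91620 to 105500 CPM elsewhere. In litter 3, 6 of the 13 were lower and 2 were higher, against 14.8% and 13.6% of all genes. Myh7, the slow myosin heavy chain of the fetal ventricle, went against the sum, with 5726 and 3974 CPM there, against 379 to 1768 CPM elsewhere (log2 fold change 2.74, SE 0.08, edgeR adjusted p = 5.13e-09). Of 7 atrial markers 3 were higher in litter 3 (Nppa, Stard10 and Dkk3), against 13.6% of all genes. Nppa, which immature ventricular cells also make, had 1202 and 1544 CPM there. The other 6 atrial markers summed to 147 to 197 CPM in litter 3 and 51.9 to 175 CPM in 5 of the other libraries. The male of litter 2 stood apart with 416 CPM, against 51.9 CPM in the female of litter 2, and had 154 CPM of Myl7 against 7.08 CPM. Of 9 fibroblast markers 7 were lower in litter 3, at 36.5 to 56.6 CPM against 109 CPM or more, as were 5 of 8 endothelial and 5 of 10 mural markers, against 14.8% of all genes. In litter 2, where Kcna5, Kcnj8 and Kcnc2 were highest, all 8 endothelial markers were higher, at 82.3 to 150 CPM against 62.0 CPM or less in the other litters. So were 6 of 9 fibroblast, 2 of 7 epicardial and 4 of 10 mural markers, the last a list of pericyte and smooth muscle genes, against 3.3% of all genes, while the cardiomyocyte marker Myh7 was lower. In the mural list, Des and Acta2 had means of 1353 and 746 CPM over the 8 libraries, against 2.96 CPM for Pdgfrb and 4.94 CPM for Rgs5. Which cells made the Des and Acta2 RNA was not tested. In litter 4, where Kcnq1 and Kcnj5 were called higher, 6 of 13 cardiomyocyte, 6 of 9 fibroblast and 3 of 10 mural markers were higher, against 4.71% of all genes. In that litter 2 cardiomyocyte markers (Ryr2 and Ttn), 1 macrophage and 1 epicardial marker were lower, against 5.8%. In litter 1, where Kcnj5 and Kcnq1 were called lower, 3 cardiomyocyte, 3 fibroblast and 1 mural marker (Acta2) were higher, against 7.86% of all genes. Lower in litter 1 were 3 atrial (Nppa, Stard10 and Dkk3), 3 mural and 2 cardiomyocyte markers, against 5.41%. The 2 were Myh7 and again Nppa, which is on both lists. Kcne1 in litters 1 and 4 and Kcnk3 in litter 1 were called higher against means that include the low litter 3. Without litter 3 neither gene passed in edgeR's F test over litters (adjusted p = 0.717 and 0.390). Of the other lists, 2 of 6 erythroid markers were higher in litter 3, as was 1 of 7 epicardial markers, while 2 of those 7 were lower. The part of these cells in the channel results was not tested, and in bulk RNA fewer cells of a type and less RNA per cell cannot be told apart. At most 3 counts in every library were found for the macrophage markers Adgre1 and Ptprc, the conduction marker Isl1, and the neural markers Th and Tubb3, with 1 of 8 neural markers tested.

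Partners of the channels that lie outside the symbol pattern were read from a list of 30 genes, of which 29 had an entry and 21 were tested. Of these 10 differed between litters, against 32.1% of all genes. Abcc8, the sulfonylurea receptor SUR1, had 114, 100.5, 82.7 and 65.2 CPM as means of litters 1 to 4 (SDs of 0.945, 4.22, 11.1 and 0.367 over 2 libraries; adjusted p = 0.000372 in edgeR). Cav3, which encodes the caveolin of muscle, had 205 ± 0.877 CPM in litter 4, the other litter means being 145 to 160 CPM (adjusted p = 0.000366). Rest, a repressor of neuronal genes, had 66.7 ± 2.07 CPM in litter 3, the other litter means being 42.6 to 45.9 CPM (adjusted p = 0.00263). Irx3, Amigo1, Nos1ap, Fhl2, Akap7 and Popdc3 had adjusted p-values from 0.014 to 0.0326. Dpp6 and Dpp10, which bind Kcnd channels in neurons, had at most 1 count in a library, and Kcnq1ot1, the antisense RNA within Kcnq1, had 4.87 ± 1.23 CPM.

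Promoters from 250 bases before to 50 after a start were matched by symbol in RefSeq (GRCm38.p6) for 67 of the 92 genes, among them 15 expressed genes with 18 promoters. They were searched on both strands for the GC box GGGCGG, the motif AGATAA of GATA factors, the MEF2 motif, the TEAD motif ACATTCC, the box TATAAA and the E-box CACGTG. The GC box was in 10 of the 18 promoters of expressed genes and in 22 of 43 of silent genes, against 35.7% of 32851 promoters. The GATA factor, MEF2 and TEAD motifs and the TATAAA box were in 0 of the 18, against 11.2%, 3.69%, 3.85% and 13.6% of all promoters, and CACGTG was in 1, against 7.15%. These matches are descriptions of letters, not of binding. The promoters of Kcnj5 and Kcnj2 are shown because these inward rectifiers are both well expressed and had different orders over litters, with matches in capitals. The first is chr9:32344295-32344594 on the minus strand and holds 2 GC boxes, and the second is chr11:111065914-111066213 on the plus strand and holds 2 GC boxes and the E-box.
Kcnj5: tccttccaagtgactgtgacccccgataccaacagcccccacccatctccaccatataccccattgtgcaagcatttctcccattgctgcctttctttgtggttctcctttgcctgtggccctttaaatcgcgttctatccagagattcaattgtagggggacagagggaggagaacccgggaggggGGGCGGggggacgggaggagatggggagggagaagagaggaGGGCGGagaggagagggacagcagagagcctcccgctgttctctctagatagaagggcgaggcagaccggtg
Kcnj2: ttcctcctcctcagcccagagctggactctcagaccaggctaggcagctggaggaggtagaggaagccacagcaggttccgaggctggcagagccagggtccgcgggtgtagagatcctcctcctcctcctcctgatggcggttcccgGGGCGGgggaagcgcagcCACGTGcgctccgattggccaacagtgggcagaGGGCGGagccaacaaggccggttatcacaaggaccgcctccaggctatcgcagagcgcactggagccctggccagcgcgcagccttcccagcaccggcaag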

How the data were processed

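The values deposited by the authors are unnormalized read counts, 1 row for each gene symbol and 1 column for each of the 8 libraries. Per the labels' protocols, libraries came from a stranded kit for total RNA and were read from 1 end, whereas the molecule field of the labels says polyA RNA. STAR 2.7.3a and mm10 are named in the submitters' processing notes. The counting program, the annotation and the use of strand are not given in the sources used here. Columns of other samples numbered 0.

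Genes kept by filterByExpr on sex (13771) were scaled with TMM and tested in R 4.3.3 with edgeR 4.0.16 (quasi-likelihood F test, Benjamini-Hochberg adjustment, threshold 0.05). The models were sex alone, and litter with sex as a covariate, with each litter then set against the mean of the other 3. TMM factors ran from 0.951 to 1.02, and CPM used the whole library total. Each standard error was derived from the fold change and its F statistic. DESeq2 1.42.0, other scalings, a lower filter and leaving out libraries were alternatives, and scripts were tested on simulated data. Lengths, positions and sequence sharing (windows of 100 bases of the longest transcript, either strand) came from GENCODE M21 on GRCm38, the assembly that mm10 names, and promoters from RefSeq. All 92 symbols matched 1 gene each.

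The labels give the sample number as the litter, so equal numbers pair siblings. With the mean of each sex subtracted, the correlation over genes between siblings was 0.506, 0.503, 0.696 and 0.367 in litters 1 to 4, and between -0.482 and 0.27 for other pairs. The members, lists and tests were chosen with earlier results of these data known. Named genes were the 15 expressed ones with the highest level per kilobase, those past the threshold for sex or litter, expressed and silent members of lists of cardiac currents, and channel partners and cell type markers. Kcnc2, Kcnab3, the low members of the current lists, the ranking and ratios by longest transcript and the atrial sum without Nppa were added after values were seen. Some members, partners and markers that enter the counts are not reported here by name.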

Additional observations from a re-analysis of the deposited data

Results flagged for a closer look

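Within each sex, the extreme libraries of every expressed gene were set against the remaining 3 by Dixon's ratio. This made 52 sets, and 5 of them held an outlying library. Chance alone would flag about 1 in 20, or 2.6. Litter 3 gave 3 of them. The male of litter 3 had 170 CPM of Kcne1, where other males had 283 to 307 CPM. The female of litter 3 had 162 CPM. The same male had 0.976 CPM of Kcnd3 (22 counts), against 1.38 to 1.41 CPM. The female of litter 3 had 10.5 CPM of Kcnq5, against 6.03 to 6.76 CPM in the other females. The female of litter 2 had 1.37 CPM of Kcnj8 (30 counts), against 0.492 to 0.619 CPM, and the female of litter 4 had 4.44 CPM of Kcnab3 (109 counts), against 2.67 to 2.93 CPM. Kcnab3 shares exons with Kcnab3os on the opposite strand. The causes were not tested.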

How the results depend on the processing

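The count of genes that differed by sex was 6, and 29 with litter as a replicate block; for potassium channels it was 0 in every fit, the block included. Leaving out 1 library gave 5 to 7 genes by sex. By litter, 4427 genes and 10 potassium channel genes passed, and 1898 and 3 without litter 3, of which Kcnj5 and Kcnq1 were among the 10. The third, Kcnc2, was left out by the count filter with all 8 libraries. With a minimum of 1 count it was tested on all 8 libraries and passed. Leaving out 1 library gave 2964 to 4097 genes and 8 to 12 potassium channel genes. Against the other litters, the potassium channel calls were 4 in litter 1 (0 to 6 without 1 library), 4 in litter 2 (0 to 5), 6 in litter 3 (6 to 7) and 3 in litter 4 (0 to 5). Without a sex term litters 1 and 2 had 2 each, and with a minimum of 1 count litter 4 had 5. Genes called expressed numbered 26 (20 to 28 under other definitions, 26 to 30 without 1 library), and silent genes 42, or 19 with 0 counts everywhere. None of the 6 sex fold changes or of the 17 litter fold changes past the threshold changed sign under any alternative run. With 2 libraries a litter and few counts, differences in Kcna5, Kcnj8, Kcnd1, Kcnd3, Kcne2 and Kcnk6 are poorly determined, and no difference there should be read as absence.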
